A study of Mus musculus with 22 samples.

Results

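The step in heavy polysomal mRNA from 2 h to 4 h after tunicamycin (Tm) was measured in mouse liver, locus by locus, and set beside the same step in total mRNA. Of the 39897 loci in the table, 9377 (23.5%) had a completed estimate at both time points and a mean of at least 50 scaled fragments over the pair of polysomal group means. Of these, 19 lacked a completed estimate in a library of the 4 groups compared, so that 9358 loci were followed throughout. They held 99.0% of the scaled fragments of all complete loci in polysomal mRNA at 2 h and 99.1% at 4 h.

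The mice of both time points were C57BL/6 males, 5 weeks old, injected intraperitoneally with 0.1 mg/kg Tm at 8 am. The 2 h group was culled at 10 am and the 4 h group at noon, so that hours since Tm and clock time cannot be told apart. From each time point total RNA and heavy polysomal RNA were sequenced, the latter pooled from the part of a sucrose gradient that holds mRNAs with more than 3 ribosomes. By the labels there were 3 libraries each for total RNA at 2 h, total RNA at 4 h and polysomal RNA at 4 h, and 2 for polysomal RNA at 2 h. The table holds 3 read groups for polysomal RNA at 2 h, so only the authors' group mean was used there, with no SD. Libraries of the other groups are numbered 1 to 3 in the order of the table's read groups, since no file says which titled sample each one is. A 0 h group of the same strain, sex and age, culled at 9 am, with 3 total and 2 polysomal libraries in the labels, never enters a step and served only to sort loci and as a reference for loading; the labels list tunicamycin for it, while the methods call these mice controls and give no dose.

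Tm blocks N-linked glycosylation, so that unfolded proteins accumulate in the endoplasmic reticulum. The kinase PERK then phosphorylates the initiation factor eIF2α, which lowers translation initiation on most mRNAs and moves them from heavy polysomes to lighter fractions, while a few stress mRNAs with upstream open reading frames are translated better. The phosphatase subunit encoded by Ppp1r15a later reverses the phosphorylation and translation recovers, and a transcriptional program runs alongside. The comparison of 4 h with 2 h asks how the composition of heavy polysomes changed over the interval in which polysomes re-form, without use of the 0 h group.

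The values are relative. Cuffdiff brings all libraries to a common scale, so that a change shared by all polysomal mRNAs is not visible, and a step at a locus is a step against the other loci. In bulk liver, fewer cells of a type and less RNA per cell cannot be told apart. Loci carry Cufflinks numbers without gene names or positions, so stress genes, pathways and liver markers were not analysed here, and the tissue label was not checked against markers. Counted fragments per library ranged from 9788578 to 10909529 for total RNA at 2 h (median 10597584), from 11636552 to 12377392 for total RNA at 4 h (median 12027031) and from 12843966 to 13726378 for polysomal RNA at 4 h (median 13371835). The 54 loci of the table that were left out as incomplete held 10.3% of the polysomal scaled fragments at 2 h and 5.16% at 4 h, and 10.6% and 4.44% of those of total mRNA, but since a skipped locus is listed at 0, these shares depend on where loci were skipped and are no measure of their abundance.

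Polysomal libraries at 4 h resembled each other about as closely as total libraries did. The log2 scaled fragments of polysomal libraries correlated across the 9358 loci with Pearson's r from 0.976 to 0.986, against 0.977 to 0.984 for total libraries at 2 h and 0.983 to 0.990 at 4 h. The median SD between the 3 libraries of a group was 0.18 (log2) for polysomal mRNA at 4 h, 0.16 for total mRNA at 2 h and 0.13 for total mRNA at 4 h. Polysomal library 3 at 4 h stood somewhat apart. Its steps from the 2 h mean correlated with those of its total partner with Spearman's rho of 0.64 across loci, against 0.81 for library 1 and 0.83 for library 2. Several of the results below are therefore given without library 3 as well. For the test of the polysomal step, only a range over left-out libraries is given. The overlap of its calls with those in total mRNA is given with all libraries only.

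Most polysomal mRNAs kept nearly the same relative level between 2 h and 4 h, and the loci past 2-fold lay in both directions. The polysomal step, log2(4 h mean + 1) minus log2(2 h mean + 1), had a median of 0.03, an SD across loci of 0.57 and a range from -0.79 at the 5th percentile to 0.84 at the 95th. In all, 80.0% of loci lay within 1.5-fold of their 2 h value. At least 2-fold higher at 4 h were 309 loci (3.3% of the 9358), and at least 2-fold lower were 250 (2.67%). Some of these loci reached the minimum mean only through the time at which they were high, and their number was not determined. The counts of 309 and 250 carry no test. With each polysomal 4 h library left out they ranged from 284 to 338 and from 252 to 282, and without library 3 they were 335 and 263.

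The minimum mean of 50 cut through a continuum of loci. The last locus inside went from 53.1 scaled fragments at 2 h to 46.9 at 4 h, a step of -0.18. The first locus outside it went from 55.8 to 44.2, a step of -0.33.

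**Figure D1:**
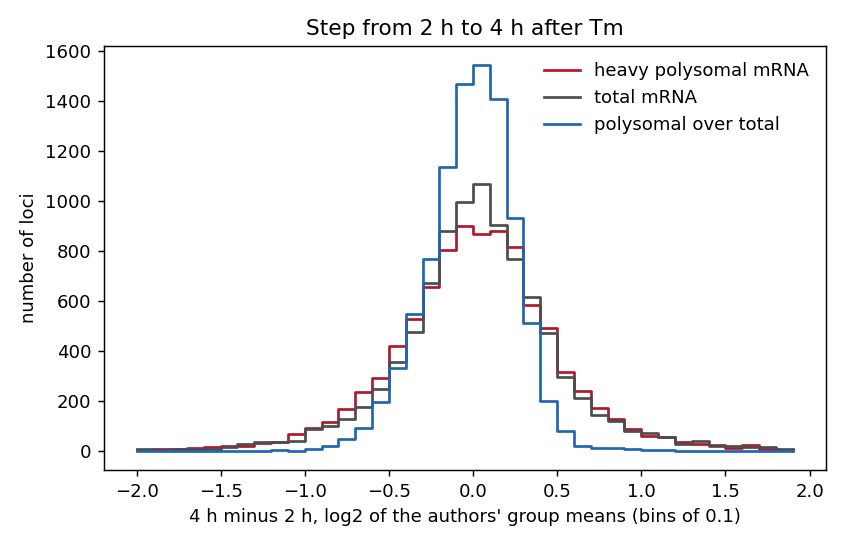
Number of loci (vertical axis) by step from 2 h to 4 h in log2 (horizontal axis, bins of 0.1) for heavy polysomal mRNA, total mRNA and their ratio, over 9358 loci; the axis shows steps between -2 and 2, and loci beyond it are not drawn. The polysomal and total curves have nearly the same width (SD 0.57 and 0.55), while the ratio is narrower (SD 0.26).

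Taken 1 at a time against the 2 h mean, the polysomal libraries at 4 h differed in their counts and in which direction held more loci. Library 1 placed 290 loci at least 2-fold higher and 247 lower, library 2 placed 391 and 383, and library 3 placed 321 and 397. Only part of the loci past 2-fold in the mean were past it in every library. All 3 libraries were at least 2-fold above the 2 h mean at 183 loci (1.96%) and at least 2-fold below it at 141 (1.51%). Both lists include loci that reached the minimum mean only through a single time point, and their number was not determined. The group mean was past 2-fold without all 3 libraries at 126 higher and 109 lower loci. For 3 loci with a mean at least 2-fold higher, a single library nevertheless lay below the 2 h mean, and for the lower loci none lay above it. The 3 libraries were all above the 2 h mean at 3336 loci and all below it at 2973, and since the 2 h mean is 1 shared value, these counts say nothing of how far 2 h livers differed from each other.

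A test of the polysomal step had to borrow its error from the other groups. In a limma fit of the 9 libraries with values of their own, the 2 h polysomal mean entered as 1 value assumed to vary like a single library, so that the calls hold only under this assumption. From this limma fit, with p-values adjusted by Benjamini-Hochberg and a threshold of 0.05, 683 loci were higher in polysomal mRNA at 4 h (7.3%) and 454 were lower (4.85%). The other time point was under the minimum mean of 50 at 45 of the higher and 56 of the lower loci, which passed it only through the time at which they were high. With these set aside, 638 higher and 398 lower loci were left. Over all 9358 loci, 2649 (28.3%) had an unadjusted p under 0.05. The median standard error of a step was 0.21 (log2), and the smallest steps called were 0.48 upward and 0.49 downward. If the 2 h mean varied more than a single library of the other groups does, these p-values are too small, and if it varied less, as a mean of several libraries can, they are too large.

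The loci furthest from their 2 h level in polysomal mRNA lay on the same side of it in total mRNA. All 309 loci at least 2-fold higher in polysomal mRNA had a total step above 0, and all 250 that were at least 2-fold lower had a total step below 0. Among all 9358 loci the total step was above 0 at 53.6% and below 0 at 46.4%. The polysomal step chose the 309 and 250 loci, and those that reached the minimum mean through a single time point were not set aside. Over the same 9358 loci, total mRNA was at least 2-fold higher at 322 (3.44%) and at least 2-fold lower at 217 (2.32%). Of these, 249 were past 2-fold upward in both fractions, which is 80.6% of the polysomal and 77.3% of the total list. Both fractions were past 2-fold downward at 156 loci, 62.4% of the polysomal and 71.9% of the total list. No locus was past 2-fold in opposite directions. Without polysomal library 3 the counts were 259 upward and 154 downward in both fractions, and again 0 in opposite directions.

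Loci past 2-fold in polysomal mRNA alone had total steps in the same direction. That these were smaller, and that the ratio step took the sign of the polysomal step, follows from how the loci were chosen. The 60 such loci that were higher had a median total step of 0.86 (5th to 95th percentile 0.61 to 0.99) and a median ratio step of 0.25. The 94 that were lower had a median total step of -0.81 (-0.98 to -0.38) and a median ratio step of -0.42. In the converse sets, 73 loci past 2-fold upward in total mRNA alone had a median polysomal step of 0.84, and 61 past 2-fold downward had one of -0.84. Across loci the polysomal step correlated with the total step with Spearman's rho of 0.81 and Pearson's r of 0.90 (n = 9358 loci, which are not independent replicates). Without polysomal library 3 the rho was 0.84. The 4 h polysomal and total libraries with the same number deviated together from their group means, and the part of this sharing in the correlation was not tested.

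**Figure D2:**
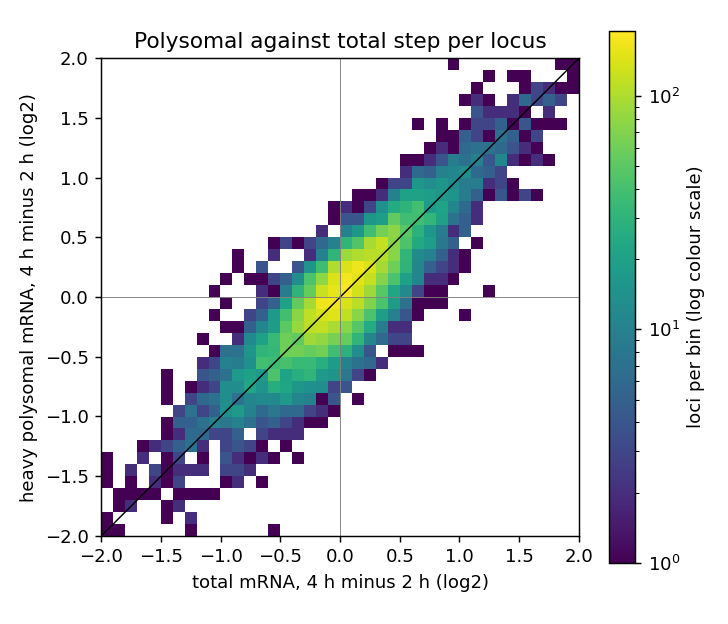
Step from 2 h to 4 h in heavy polysomal mRNA (vertical axis, log2) against that in total mRNA (horizontal axis, log2), with colour for the number of loci per bin on a log scale; the diagonal marks equal steps, and axes end at -2 and 2. Loci spread along the diagonal (Spearman's rho of 0.81), and the corners of opposite 2-fold change are empty.

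Loci called in total mRNA that were also in the polysomal set gave the same picture in polysomal mRNA. How many of them reached the polysomal minimum mean through a single time point was not counted. With edgeR's quasi-likelihood test on the counts of the 6 total libraries, with Benjamini-Hochberg adjusted p-values, a threshold of 0.05 and a change of at least 2-fold, 431 of 12259 loci tested were higher at 4 h (3.52%) and 396 were lower (3.23%). With upper-quartile normalization, which shifted the median log2 fold change from -0.01 to -0.09, the split was 355 higher and 541 lower. Among the 311 higher loci that were in the polysomal set, the median polysomal step was 1.27 (5th to 95th percentile 0.72 to 3.08), beside a median total step of 1.32 and a median polysomal step of 0.03 over all 9358 loci. Polysomal mRNA was in the same direction at 310 of them and at least 2-fold higher at 242 (77.8%). Among the 229 lower loci in the polysomal set, the median polysomal step was -1.14 (-3.11 to -0.61), beside a total step of -1.25. All 229 were in the same direction in polysomal mRNA, and 154 (67.2%) were at least 2-fold lower. Over all 9358 loci the polysomal step was above 0 at 4896 (52.3%) and below 0 at 4462. It was past 2-fold upward at 3.3% and downward at 2.67%. Without polysomal library 3 the median polysomal steps of the 311 and 229 loci were 1.30 and -1.20.

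The loci that limma called in polysomal mRNA, with 1 value at 2 h assumed to vary like a single library, lay on the same side in total mRNA with few exceptions. Of the 683 higher loci, all had a total step above 0, and 632 were higher in total mRNA by edgeR's adjusted p with no minimum fold (92.5% of the polysomal list and 43.1% of the 1466 such loci), where edgeR called 13.2% of all loci tested and 15.7% of those followed. Of the 454 lower loci, 447 had a total step below 0, and 366 were lower in total mRNA by the same test (80.6% of the polysomal list and 32.5% of 1127), where edgeR called 11.2% of all loci tested and 12.0% of those followed. Over all 9358 loci the total step was above 0 at 53.6% and below 0 at 46.4%. The calls in the fractions were not separate, since limma's error came in part from the total libraries that edgeR tested. Polysomal and total libraries of the same number at 4 h also deviated together, and the part of either in the overlap was not tested. The lists of 683 and 454 include 45 and 56 loci that passed the minimum mean only through the time at which they were high. Of the 638 higher loci with both polysomal means at the minimum, all had a total step above 0 and 590 were called in total mRNA. Of the 398 such lower loci, 391 had a total step below 0 and 318 were called. Over the full lists of 683 higher and 454 lower loci, the median polysomal steps were 0.90 and -0.93, against median total steps of 0.82 and -0.75.

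Polysomal mRNA per total mRNA, here called loading, changed far less than either fraction. The ratio step, which is the polysomal step minus the total step, had a median of 0.00, an SD across loci of 0.26, and 5th and 95th percentiles of -0.46 and 0.36. It stayed within 1.5-fold at 97.3% of loci. The ratio was at least 1.5-fold higher at 4 h for 61 loci (0.652%) and at least 1.5-fold lower for 192 (2.05%), and it passed 2-fold at 5 and 4 loci. The median standard error of a ratio step in the limma fit was 0.25, about as large as the SD of the ratio steps across loci. The interaction test in limma called 0 loci (0%), with a smallest adjusted p of 0.999. At an unadjusted p under 0.05 there were 219 loci (2.34%), 32 higher and 187 lower. With a fitting error and no change at any locus, a share of about 0.05 would have an unadjusted p under 0.05. The share here was lower, so the error of the ratio step may be too large, which was not tested. A change in loading at single loci was not detectable in this fit, with 1 value for polysomal mRNA at 2 h, which does not show that loading stayed the same.

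Single libraries moved the counts of loci past 1.5-fold in loading by more than 1.5 times. The 61 higher loci became 139 without polysomal library 1 at 4 h, 93 without library 2 and 49 without library 3. They became 122 without total library 2 at 2 h, 103 without total library 1 at 4 h and 110 without total library 2 at 4 h. The 192 lower loci became 390 without polysomal library 2 at 4 h and 157 without library 3. Lower loci outnumbered higher ones in each of the 9 sets with a library left out. In the sets without a 4 h library, its partner of the same number in the other fraction was kept. The part of this broken pairing in the counts was not tested.

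Where loading was listed as changed, the median steps of the fractions lay on opposite sides of 0. Among the 61 loci with a higher ratio, the median polysomal step was 0.28 and the median total step -0.49. Polysomal mRNA lay above its 2 h level at 49 of them, and total mRNA lay below its own at 49. Among the 192 loci with a lower ratio, the median polysomal step was -0.54 and the median total step 0.16. Polysomal mRNA was below its 2 h level at 167 and total mRNA above its own at 126. Over all 9358 loci, polysomal mRNA was above its 2 h level at 52.3% and below it at 4462 loci. Total mRNA was above its own at 53.6% and below it at 46.4%. The ratio that chose the 61 and 192 loci is made of both steps, so their values describe them and test nothing.

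In the group means, loading at 4 h was nearer than loading at 2 h to the order of loci found at 0 h, by an amount that depended on the library. Across loci, loading at 0 h had a Spearman's rho of 0.55 with loading at 2 h and of 0.73 with loading at 4 h, and loading at 2 h had one of 0.80 with loading at 4 h. The spread of log2 loading across loci was 0.55 (SD) at 0 h, 0.40 at 2 h and 0.45 at 4 h. These are descriptions over 9358 loci that share libraries, depth and length, with the 0 h values taken from group means. For the single 4 h pairs 1, 2 and 3 of a polysomal and a total library, the rho with 0 h loading was 0.65, 0.59 and 0.73. For the 2 h polysomal mean over total libraries 1, 2 and 3 at 2 h, it was 0.54, 0.56 and 0.37. Without polysomal library 3 the rho of 0 h with 4 h loading was 0.62. Without total library 3 at 2 h that of 0 h with 2 h loading was 0.59. The gap between 2 h and 4 h was thus smaller with either library left out, and with both left out 0.62 stood against 0.59.

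When loci were sorted by loading at 0 h into 10 bins of equal size, from bin 1 (lowest) to bin 10 (highest), the median ratio step of the group means was below 0 for poorly loaded and above 0 for well loaded loci, by small amounts. The median ratio step was -0.22 in bin 1, where 20.4% of loci were above 0. It was 0.15 in bin 9, where 74.5% were above 0, and 0.11 in bin 10, where 66.7% were above 0. Both fractions differed between the bins. The median polysomal step went from -0.11 in bin 1 to 0.07 in bin 10, and the median total step from 0.10 to -0.04. Of the 192 loci with a ratio at least 1.5-fold lower, 65 were in bin 1 and 16 in bin 10, while of the 61 that were at least 1.5-fold higher, 9 were in bin 1 and 8 in bin 10.

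The size of this trend depended on the library. The median ratio step of bin 10 exceeded that of bin 1 by 0.33 with the group means. Taking each 4 h pair of a polysomal and a total library alone, the difference was 0.18 for pair 1, 0.22 for pair 2 and 0.59 for pair 3. In pair 1 the well loaded loci were not above 0 throughout, with medians of 0.05 in bin 9 and -0.02 in bin 10. It was 0.16 without polysomal library 3 and 0.22 without total library 3 at 2 h, the lowest values with a library left out, and 0.45 without polysomal library 1, the highest. All 3 pairs and all 9 sets with a library left out gave a difference above 0. The pairs share the 2 h means, and the sets share most of their libraries, so their common sign is not independent evidence. What they would give with no change in loading was not tested.

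**Figure D3:**
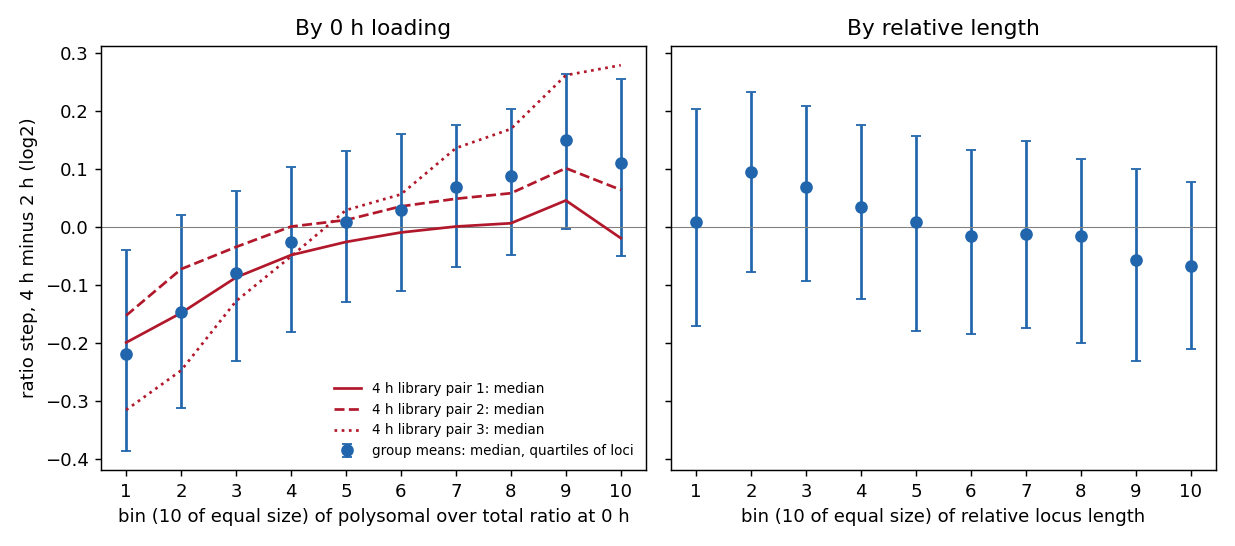
Ratio step from 2 h to 4 h (vertical axis, log2) in 10 bins of loci by polysomal over total ratio at 0 h (left) and by relative locus length (right), with points for the median of the group means, bars for the quartiles of loci, and lines for single 4 h library pairs. The median climbs from -0.22 in bin 1 to 0.15 in bin 9 of 0 h loading, most steeply in pair 3, and falls from 0.09 in bin 2 to -0.07 in bin 10 of length.

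Length moved with loading too. Relative length, the fragments per unit of FPKM of a locus set against the median locus, had a Spearman's rho of -0.48 with loading at 0 h. The rho was -0.14 at 2 h and -0.22 at 4 h. Longer loci were less loaded at each time, with the weakest relation at 2 h. Its rho was -0.17 with the ratio step, -0.07 with the polysomal step and 0.03 with the total step. The median ratio step was 0.01 in the shortest of 10 bins and 0.09 in bin 2, where 64.0% of loci were above 0. It was -0.07 in the longest bin, where 38.6% were above 0. This relation was weaker without polysomal library 3, with a rho of -0.07 and medians of 0.04 in bin 2 and -0.04 in the longest bin. Over all loci, loading at 0 h had a rho of 0.40 with the ratio step, 0.21 without polysomal library 3 and 0.26 without total library 3 at 2 h. Within bins of length the rho was 0.25 to 0.45, and 0.15 to 0.26 without polysomal library 3. With the trend by length removed, the difference between the highest and lowest bin of 0 h loading was 0.24, and 0.13 without polysomal library 3.

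Median polysomal steps were slightly higher in bins of higher mean polysomal count. The bins were formed from the mean of the same polysomal values that make up the step. Their medians thus describe the loci and test nothing. The median polysomal step was -0.15 in the bin of loci with the lowest mean polysomal count (median 63.0 scaled fragments), 0.11 in bin 7 and 0.08 in the highest (median 2931), and without polysomal library 3 it was -0.16 in the lowest and 0.08 in the highest. The median total step went from -0.09 to 0.03 between the lowest and the highest bin, and the ratio step from -0.05 to 0.06. Among loci that were not skipped, the most abundant took a smaller share of the fragments at 4 h. The 10 most abundant loci took 13.6% of scaled fragments in the 2 h polysomal mean and 11.5% in the 4 h mean, where single libraries gave 11.4%, 11.01% and 12.2%. The 200 most abundant took 47.6% at 2 h and 44.0% at 4 h, with 43.8%, 45.0% and 43.1% in the single libraries, all below the 2 h mean. These shares leave out the skipped loci, which were marked as holding too much data, so the most abundant mRNAs of the liver may not be among those ranked.

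The largest rise with all 3 libraries at least 2-fold above the 2 h mean was at XLOC_022075. Polysomal mRNA was at 0.331 scaled fragments in the 2 h mean and at 104, 124 and 87.7 in the 4 h libraries (105 ± 18.3, SD, n = 3). Total mRNA had 0 fragments in all 3 libraries at 2 h and 115, 171 and 128 at 4 h (138 ± 29.4, SD, n = 3). The locus thus went from almost nothing to a moderate level in both fractions, with no overlap between the times. Its polysomal step was 6.32 (6.44 without library 3), or 3.77 with a pseudocount of 8, since it starts near 0. The locus reached the minimum mean only through its 4 h level, so no test is given for it. Against a floor of 3 counts per library at 2 h, total mRNA was at least 42.1-fold higher at 4 h. Its polysomal mean at 0 h was 0.

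The largest fall was at XLOC_023236. Its polysomal mRNA stood at 8151 scaled fragments in the 2 h mean and at 109, 78.2 and 132 in the 4 h libraries (106 ± 26.9, SD, n = 3). Total mRNA was at 9261, 1328 and 12670 at 2 h and at 158, 76.1 and 97.4 at 4 h. Total library 2 at 2 h was far below the other two but still above all 4 h libraries. The polysomal step was -6.25 (-6.43 without library 3), given without a test since the spread at 2 h is not known for it and its total libraries varied widely there, and the total step -6.12 (-6.15 in edgeR, adjusted p = 0.000547). Total mRNA fell, and every polysomal library at 4 h lay far below the 2 h mean. The ratio step was -0.13 from the group means and -0.62 in limma, which averages log values.

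The largest rise in loading was at XLOC_026312, where the total mean was lower at 4 h and the polysomal mean was not. Polysomal mRNA was at 94.6 scaled fragments in the 2 h mean and at 102, 130 and 121 at 4 h, a step of 0.31. Total mRNA was at 321, 218 and 603 at 2 h and at 195, 241 and 193 at 4 h, a step of -0.86 that did not pass edgeR's test (adjusted p = 0.0606). Its total libraries overlapped between the times, with 1 high value at 2 h. The ratio step was 1.17, or 1.15 without library 3, with an adjusted p of 0.999 in limma's interaction test. Its relative length came out at 0.00125, near 0, so that its FPKM are far larger than its fragments.

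The largest fall in loading was at XLOC_017856. Polysomal mRNA was at 103 scaled fragments in the 2 h mean and at 29.4, 30.6 and 17.4 at 4 h, each far below it. Total mRNA was at 42.1, 32.7 and 81.4 at 2 h and at 45.3, 30.3 and 31.9 at 4 h, and these groups overlapped. The polysomal step was -1.95, given without a test since the locus reached the minimum mean only through its 2 h level, and the total step was -0.53 (edgeR adjusted p = 0.263). The ratio step was -1.42, or -1.21 without library 3. The polysomal libraries at 4 h held from 24 to 40 counted fragments of it, so that counting error adds to the differences between them. Their single steps from the 2 h mean ran from -2.49 to -1.71, and the spread behind that mean is not known.

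**Figure D4:**
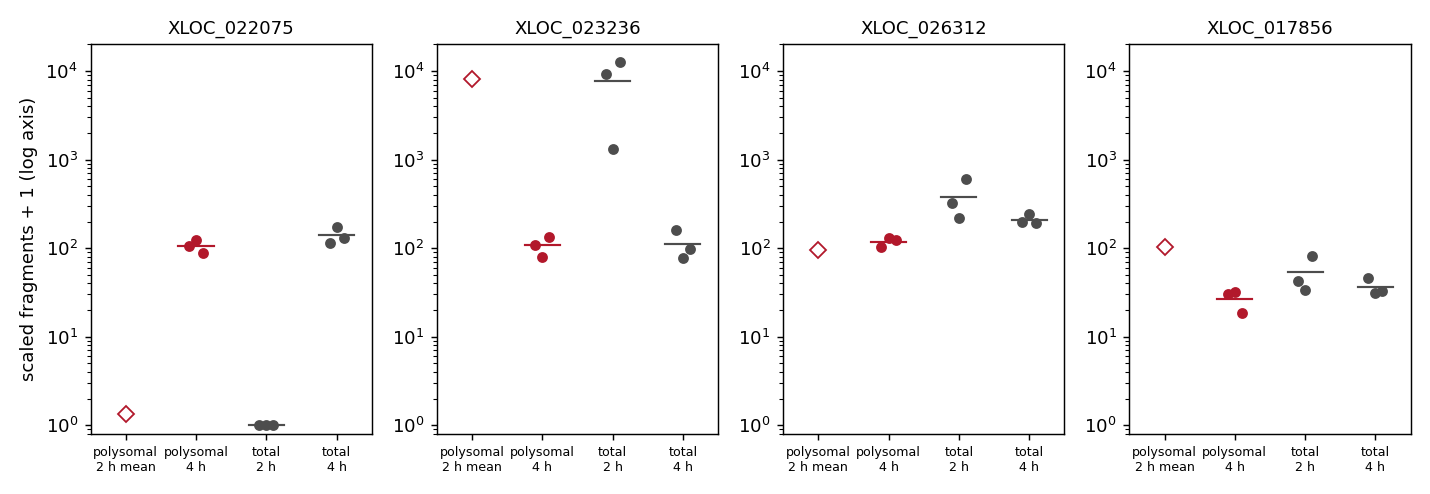
Scaled fragments + 1 (vertical log axis) of 4 loci in polysomal and total mRNA at 2 h and 4 h, with open diamonds for the authors' 2 h polysomal mean, dots for single libraries and lines for means of 3 libraries. XLOC_022075 and XLOC_023236 lie far apart between the times in both fractions, while for XLOC_026312 and XLOC_017856 the total libraries of the times overlap.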

How the data were processed

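Heavy polysomal and total RNA of mouse liver was sequenced as stranded poly(A) libraries. The authors aligned reads with TopHat (2.0.13 per the submitters' processing notes) to transcripts of GRCm38; Cuffdiff from Cufflinks 2.2.1 was run with corrections for bias and multi-mapped reads. The annotation release is not given in the sources used here. They deposited raw counts of fragments per locus and read group, FPKM values, and a signal, which is counts divided by library size factors (scaled fragments), per read group and as group means. The FPKM the authors deposited served only for relative length. Loci marked as holding too much data are listed at 0 and were left out. Of 27 group means 6 were used, and of 81 read groups 12; 69 were not used, since they are of other groups or of polysomal RNA at 0 h and 2 h, where 3 read groups face 2 labelled samples. Read groups of the other groups were assigned to their group by condition, and to titled samples by order only.

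Steps were differences of log2(mean + 1), for loci whose mean reached 50. limma 3.58.1 (trend) was fitted on log2(scaled fragments + 1) of 9 libraries and the 2 h polysomal mean, with 6 residual degrees of freedom; edgeR 4.0.16 (TMM, filterByExpr, quasi-likelihood) on the counts of 6 total libraries, in R 4.3.3, each with Benjamini-Hochberg adjustment at 0.05. DESeq2 1.42.0 was an alternative. Steps and bins were computed in Python 3.11.15 with pandas 2.3.3. Tests were checked on simulated data. The methods give 3 animals per time point but do not tie single libraries to animals, so p-values measure the spread between libraries. At 4 h, deviations of total and polysomal libraries with the same number correlated across loci at 0.464 to 0.495, while unlike numbers gave -0.326 to -0.121, so the read group number marks pairs there; total libraries at 2 h and 4 h did not pair (-0.013 to 0.060).

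Named loci, 4 in all, were those with the largest polysomal step upward and downward among loci with all 3 polysomal 4 h libraries at least 2-fold from the 2 h mean, and the largest ratio step each way among loci with at least 1.5-fold in the mean and in each polysomal library alone. The members, rules and tests were chosen with earlier results of these data known. Columns of the authors' own comparisons were not used. Alternatives were other thresholds, minimum means, pseudocounts and scalings, DESeq2, a replicate block, weights for the 2 h mean, and each library left out.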

Additional observations from a re-analysis of the deposited data

How the results depend on the processing

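Which direction held more loci was not stable. More loci were lower than higher in polysomal means at a minimum mean of 10, and edgeR gave 355 higher and 541 lower loci in total mRNA with upper-quartile normalization and 450 and 526 without total library 2 at 2 h. At 1.5-fold, polysomal means gave 967 higher and 900 lower loci, total means 918 and 742, and all 3 polysomal libraries 565 and 491. Loading gave 1146 and 1502 at 1.2-fold, and 5 and 4 at 2-fold. With no minimum fold edgeR called 1620 and 1369 loci in total mRNA. Those in the polysomal set, 1466 and 1127, had median polysomal steps of 0.63 and -0.60. With at least 2-fold added, limma called 264 and 193 in polysomal mRNA. With no minimum mean, more loci were lower than higher in each case: 839 and 1196 for polysomal means, 924 and 1014 for total means and 1953 and 2714 for loading. At a minimum of 10 they were 412 and 510 for polysomal means, 448 and 443 for total means, and 228 and 564 for loading. At 200 they were 208 and 120 for polysomal means, 211 and 100 for total means, and 21 and 98 for loading. With a pseudocount of 8 the step of XLOC_022075 was 3.77.

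With a library left out, loci higher and lower numbered 284 to 338 and 252 to 282 for polysomal means, 295 to 365 and 211 to 271 for total means, 49 to 139 and 157 to 390 for loading, 500 to 732 and 353 to 513 for limma's polysomal test, and 361 to 455 and 313 to 526 for edgeR. In limma's interaction test they were 0 throughout. The highest bin of 0 h loading exceeded the lowest by 0.16 to 0.45 in median ratio step.

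With a replicate block for the read group number, which pairs the 4 h libraries, limma called 693 and 461 loci in polysomal mRNA and 0 in loading. The same block in edgeR gave 424 and 383 in total mRNA, but its total libraries did not pair between the times. The block changed no count by over 1.5 times. Weighting the 2 h polysomal mean as 3 libraries, chosen after seeing the data, assumes a number that was not measured, since the labels list 2 samples there, and supports no result. It gave 1695 and 1413 in polysomal mRNA, and 1687 and 1403 with the replicate block; loading stayed at 0 calls in both, with 564 and 720 loci at an unadjusted p under 0.05.

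The single read groups of polysomal mRNA at 2 h were not used here, since they could not be tied to the labelled samples, which limits every test of the polysomal and the ratio step.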
